A study of Homo sapiens with 6 samples.

Results

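Cells make cholesterol and fatty acids from the same acetyl-CoA, and the genes of both routes were followed here in 35 members chosen by name. They comprised 20 genes of the sterol arm, from acetyl-CoA to cholesterol, and 8 of the fatty acid arm. A further 4 encode the machinery of the sterol regulatory element-binding proteins (SREBPs) and 3 encode sterol transport proteins. The rule that chose them goes by gene name and uses no measured value, though it was written with earlier results of these data known. All 35 were matched by symbol among the 26255 gene symbols measured, and 34 of them were among the 12203 genes tested, those whose FPKM averaged 1 or more. FPKM counts fragments per length of transcript and per depth of the library, so levels can be compared between genes. The exporter ABCA1 was the 1 member below this filter.

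RNA was measured by strand-specific sequencing of poly(A) RNA from HCT116, an established human colorectal cancer cell line. There were 6 libraries in 3 groups of 2, which were parent HCT116 cells, HCT116 cells given the small interfering RNA siLINC01534-1, and HCT116 cells given siLINC01534-2. Both siRNAs were designed against LINC01534, a long noncoding RNA. All groups shared the cell line, and no other agent is named in the labels. The time from transfection to harvest is not given for these libraries in the sources used here. Nothing in the labels says that the parent cells were transfected, and no library with a control siRNA was analysed here, so that transfection itself and loss of LINC01534 cannot be told apart in any comparison with parent. The labels number 2 libraries in each group, while the methods of the study give 3. Nothing says that the 2 came from separate experiments, so that p-values measure only the spread between these libraries, which may be technical.

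Sterol synthesis runs from acetyl-CoA through mevalonate, isoprenoid diphosphates and squalene to lanosterol, which is then trimmed to cholesterol. Fatty acid synthesis carboxylates acetyl-CoA and builds palmitate, which is elongated and desaturated. Both routes are textbook targets of the SREBPs, membrane-bound transcription factors of the endoplasmic reticulum. When sterols are low, SCAP escorts an SREBP to the Golgi apparatus, where proteases release its active part, and when sterols are high, INSIG proteins hold SCAP back. SREBP-2 is known mainly for sterol genes and SREBP-1 mainly for fatty acid genes, and colorectal cancer cells make much of their lipid themselves.

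The promoters of the members share sequence features that the choice of genes did not use. RefSeq (GRCh38.p14) gave a window from 250 bases before to 50 bases after the start of transcription for 31 members, with 43 starts in all, while ACAT2, FASN, FDFT1 and SQLE are not in that table. The box CCAAT, bound by NF-Y, a common partner of SREBPs, was found on either strand in 26 of the 43 member promoters (60.5%), against 34.6% of all 35116 promoters in the table. It was present for 14 of 17 sterol members and for 5 of 7 fatty acid members. The box GGGCGG, bound by Sp1, was found in 37 of the 43 (86.0%), against 45.0% of all promoters and 56.8% of those of coding genes. The E-box CACGTG was found in 6 of the 43, against 7.26% of all. The letters TCACNCCAC, a form of the sterol regulatory element, were found in 1 of the 43 (2.33%), against 1.13% of all. The match was in SREBF2, where 18 bases separated it from the next CCAAT box. Other spellings of the element were not searched, so a promoter without a match may still hold the element. These are matches of letters only and no binding was measured.

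The promoters of 6 members are printed for the results that follow. HMGCS1 and MSMO1 are sterol genes that moved in opposite directions with the siRNAs, and SCD and ELOVL6 stand for the fatty acid arm. NPC1 is the transport gene that rose, and SREBF2 holds the TCACNCCAC match. Capitals mark the CCAAT and GGGCGG boxes on either strand, and in SREBF2 also the TCACNCCAC match. The windows are read along the strand of the gene, at chr5:43313363-43313662 (minus, 1 of 2 starts) for HMGCS1, chr4:165327419-165327718 (plus) for MSMO1 and chr22:41832855-41833154 (plus) for SREBF2. They are at chr10:100346983-100347282 (plus) for SCD, chr4:110198566-110198865 (minus) for ELOVL6 and chr18:23586457-23586756 (minus) for NPC1. MSMO1 holds 4 CCAAT boxes, HMGCS1 and SCD 2 each, SREBF2 has 1, and ELOVL6 and NPC1 have 0 in these windows.
HMGCS1: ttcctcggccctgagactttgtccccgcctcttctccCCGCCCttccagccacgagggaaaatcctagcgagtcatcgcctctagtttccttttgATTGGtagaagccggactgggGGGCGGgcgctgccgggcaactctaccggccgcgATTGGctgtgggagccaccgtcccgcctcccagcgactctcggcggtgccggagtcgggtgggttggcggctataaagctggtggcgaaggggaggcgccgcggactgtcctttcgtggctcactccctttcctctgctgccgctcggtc
MSMO1: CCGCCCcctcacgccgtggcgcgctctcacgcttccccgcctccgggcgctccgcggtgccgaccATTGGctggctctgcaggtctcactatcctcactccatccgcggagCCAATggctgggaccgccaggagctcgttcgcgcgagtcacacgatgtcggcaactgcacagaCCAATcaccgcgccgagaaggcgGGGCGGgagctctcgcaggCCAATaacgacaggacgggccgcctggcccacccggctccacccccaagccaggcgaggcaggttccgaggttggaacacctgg
SREBF2: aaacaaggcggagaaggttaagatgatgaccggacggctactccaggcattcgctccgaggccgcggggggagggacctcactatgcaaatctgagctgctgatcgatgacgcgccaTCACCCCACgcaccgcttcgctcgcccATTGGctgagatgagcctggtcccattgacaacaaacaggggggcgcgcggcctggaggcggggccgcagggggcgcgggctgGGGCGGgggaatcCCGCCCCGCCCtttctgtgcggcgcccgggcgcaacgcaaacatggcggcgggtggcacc
SCD: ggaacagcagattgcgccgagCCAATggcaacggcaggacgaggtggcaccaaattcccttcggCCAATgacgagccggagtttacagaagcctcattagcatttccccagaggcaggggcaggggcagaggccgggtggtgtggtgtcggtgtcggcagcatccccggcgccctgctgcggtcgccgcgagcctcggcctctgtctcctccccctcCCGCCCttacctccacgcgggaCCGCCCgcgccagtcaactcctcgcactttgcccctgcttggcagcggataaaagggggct
ELOVL6: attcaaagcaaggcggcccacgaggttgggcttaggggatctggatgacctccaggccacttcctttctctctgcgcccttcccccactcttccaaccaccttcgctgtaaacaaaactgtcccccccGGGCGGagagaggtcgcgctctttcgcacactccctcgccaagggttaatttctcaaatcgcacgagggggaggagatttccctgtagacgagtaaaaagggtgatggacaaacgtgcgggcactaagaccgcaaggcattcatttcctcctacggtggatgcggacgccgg
NPC1: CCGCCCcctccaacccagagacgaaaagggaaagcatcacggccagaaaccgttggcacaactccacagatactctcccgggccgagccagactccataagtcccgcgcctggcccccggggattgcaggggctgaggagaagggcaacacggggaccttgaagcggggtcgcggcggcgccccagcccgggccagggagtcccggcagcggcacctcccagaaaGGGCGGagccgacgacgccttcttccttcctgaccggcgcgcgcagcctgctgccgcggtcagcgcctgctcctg

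The depth, estimated from the steps between low FPKM values, lay between 8680000 and 10400000 reads. Reads per gene were estimated with its longest annotated transcript, less 200 bases. This gave at least 116 for every tested member in every library, but fewer reads lie behind genes whose RNA is mostly of shorter transcripts. LINC01534 itself was measured by very few reads, estimated as whole multiples of a step in FPKM with 1 step assumed to be 1 read. Parent had an FPKM of 0.285 and 0.571 (1 and 2 estimated reads) and siLINC01534-1 had 0 and 0.283 (0 and 1). With siLINC01534-2 it was 0.660 and 0.551 (2 estimated reads each). A decrease with either siRNA was not detectable at this depth, and the groups are named by their labels throughout. Of 8 markers of colorectal epithelium, 6 were above 1 FPKM in every library, while VIL1 and CDH17 reached at most 0.0453 and 0.0656. Their summed FPKM was 3458 to 3522 in parent, 2927 to 2932 with siLINC01534-1 and 3335 to 3521 with siLINC01534-2. Markers of adipocytes and hepatocytes, cells rich in lipid synthesis, reached at most 0.178 and 0.499. The leukocyte list summed to 2.91 to 3.94, 3.41 to 3.77 and 6.10 to 6.21 in the same order, nearly all of it CD68, with CD3E at 0. The fibroblast list summed to 3.09 to 3.14, 5.36 to 6.08 and 3.83 to 4.33, nearly all of it COL1A1, with DCN at 0. The part of these shifts in the results was not tested. Since a bulk library averages over its cells, fewer cells that express a gene and less of its RNA per cell cannot be told apart.

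With siLINC01534-1, most of both arms fell. Of the 34 members tested, 25 were lower than in parent and 2 higher (NPC1 and SCAP) at an adjusted p-value under 0.05 from limma, against 24.5% of all tested genes lower and 21.8% higher. With siLINC01534-2, 8 members were lower and 4 higher, against 11.8% and 11.1% of all tested genes. Without any 1 of the parent or siLINC01534-2 libraries, 4 to 7 of these 12 calls were kept, and the calls over all genes dropped from 2788 to between 857 and 1195. Between the siRNAs, 22 members were lower with siLINC01534-1 than with siLINC01534-2 and 2 were higher, against 22.3% and 19.5%. The comparisons with parent share the 2 parent libraries, so their values are set side by side and no overlap is drawn from them. Fold changes are on the log2(FPKM + 1) scale, which understates changes of genes with low FPKM, and their standard errors come from the spread shared by all 6 libraries.

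**Figure D1:**
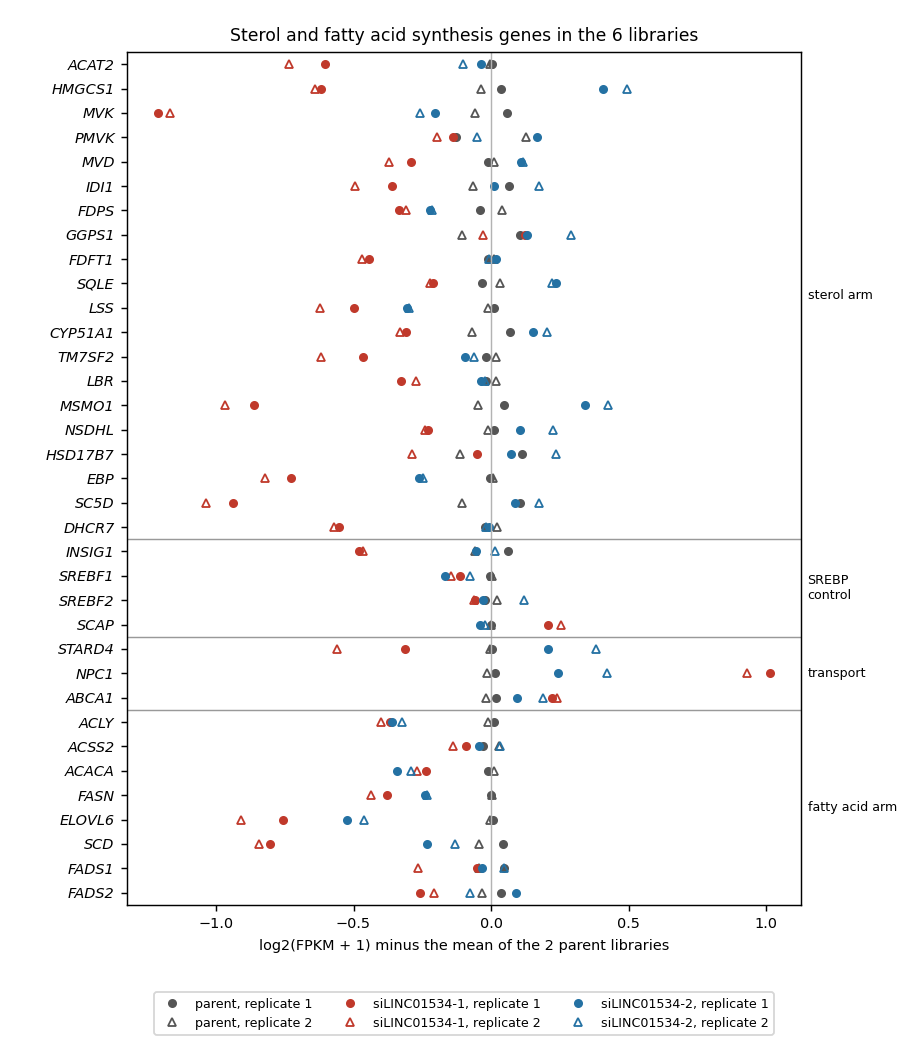
Each of the 35 members in each of the 6 libraries, as log2(FPKM + 1) minus the mean of the 2 parent libraries (horizontal axis), ordered by arm. Filled circles are replicate 1 and open triangles replicate 2, and colours mark the groups. The siLINC01534-1 libraries lie left of zero for nearly all sterol and fatty acid genes, while the siLINC01534-2 libraries lie on both sides in the sterol arm and mostly left in the fatty acid arm.

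The first steps of the sterol arm make mevalonate and turn it into the basic isoprenoid unit. HMGCS1 (chromosome 5 of GRCh37, 43287572 to 43313614, minus strand) encodes the cytosolic HMG-CoA synthase. In parent, HMGCS1 had an FPKM of 33.5 and 31.8, and the values were 20.9 and 20.6 with siLINC01534-1 and 43.6 and 46.4 with siLINC01534-2. The siLINC01534-1 libraries lay below both parent libraries and the siLINC01534-2 libraries above them. HMGCS1 shares 37.7% of its exonic bases with a long noncoding RNA on the opposite strand, and the strand setting of the counting is not given in the sources used here. The change was -0.63 with siLINC01534-1 (SE 0.049, adjusted p = 4.5e-04 from limma) and 0.45 with siLINC01534-2 (SE 0.049, adjusted p = 0.0044 from limma). The siRNAs differed by -1.08 (SE 0.049, adjusted p = 1.5e-04 from limma). The direction with siLINC01534-2 held with each library left out in turn, with adjusted p-values from 0.021 to 0.039 from limma.

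MVK (chromosome 12, 110011060 to 110035930, plus strand) encodes mevalonate kinase and showed the largest fall of all members. MVK stood at 20.9 and 19.2 FPKM in parent, at 8.09 and 8.37 with siLINC01534-1 and at 17.2 and 16.6 with siLINC01534-2. Its FPKM with siLINC01534-1 was 0.410 times that in parent, and the groups did not overlap. The change was -1.19 with siLINC01534-1 (SE 0.058, adjusted p = 1.3e-04 from limma) and -0.23 with siLINC01534-2 (SE 0.058, adjusted p = 0.040 from limma), where the second value lost its call in every set of 5 libraries (adjusted p from 0.075 to 0.16 from limma).

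ACAT2, the cytosolic thiolase at the start of the route, fell with siLINC01534-1. The parent libraries gave 39.7 and 39.5 FPKM for ACAT2, those of siLINC01534-1 25.7 and 23.4, and those of siLINC01534-2 38.6 and 36.9. The siLINC01534-2 libraries lay just below parent and far above siLINC01534-1. The changes were -0.67 with siLINC01534-1 (SE 0.055, adjusted p = 5.5e-04 from limma) and -0.069 with siLINC01534-2 (SE 0.055, adjusted p = 0.41 from limma), and the siRNAs differed by -0.60 (SE 0.055, adjusted p = 0.0010 from limma). ACAT2 shares 17.2% of its exonic bases with TCP1 on the opposite strand, so its reads are uncertain too. MVD, the mevalonate diphosphate decarboxylase, fell with siLINC01534-1 as well. FPKM values of MVD were 60.2 and 61.2 (parent), 49.4 and 46.8 (siLINC01534-1) and 65.6 and 65.8 (siLINC01534-2). The siLINC01534-2 libraries lay above parent, without passing the threshold. Its changes were -0.33 with siLINC01534-1 (SE 0.040, adjusted p = 0.0019 from limma) and 0.11 with siLINC01534-2 (SE 0.040, adjusted p = 0.099 from limma), with a difference of -0.44 (SE 0.040, adjusted p = 9.2e-04 from limma). The phosphomevalonate kinase PMVK passed the threshold in 0 of the 3 comparisons, with FPKM from 15.7 to 20.5 over the 6 libraries.

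The next enzymes build longer isoprenoids and squalene. IDI1 encodes the isopentenyl diphosphate isomerase. For IDI1, parent gave an FPKM of 55.0 and 50.1, siLINC01534-1 40.7 and 36.99, and siLINC01534-2 52.8 and 59.3. The siLINC01534-1 libraries were the lowest, and the other groups overlapped. The change was -0.43 with siLINC01534-1 (SE 0.082, adjusted p = 0.0093 from limma), and it lost its call without the first parent library (adjusted p = 0.059) or without the second siLINC01534-1 library (adjusted p = 0.060 from limma). The other comparison gave 0.092 with siLINC01534-2 (SE 0.082, adjusted p = 0.46 from limma), and the siRNAs differed by -0.52 (SE 0.082, adjusted p = 0.0056 from limma). FDPS, the farnesyl diphosphate synthase, fell with both siRNAs, by 0.32 and 0.22 on the log2 scale (adjusted p = 0.0018 and 0.016 from limma), and ranged from 101 to 132 FPKM. Its call with siLINC01534-2 was lost without the second parent library or either siLINC01534-2 library (adjusted p up to 0.074 from limma). Reads of FDPS and IDI1 could be shared with 8 and 3 named pseudogenes, and both overlap antisense RNAs. GGPS1, which feeds protein prenylation instead of sterols, passed in 0 comparisons, with FPKM from 6.75 to 9.20, and shares 37.3% of its exonic bases with another coding gene on the same strand.

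FDFT1 encodes squalene synthase, the first enzyme committed to sterols. In parent, FDFT1 had an FPKM of 119 and 121, and the values were 87.8 and 86.3 with siLINC01534-1 and 121 and 119 with siLINC01534-2. Parent and siLINC01534-2 interleaved and siLINC01534-1 lay well below. The change was -0.46 with siLINC01534-1 (SE 0.031, adjusted p = 3.2e-04 from limma) and 0.0054 with siLINC01534-2 (SE 0.031, adjusted p = 0.92 from limma), and the siRNAs differed by -0.46 (SE 0.031, adjusted p = 4.1e-04 from limma). SQLE encodes squalene epoxidase, a rate-limiting step after squalene. SQLE stood at 37.3 and 39.1 FPKM in parent, at 32.9 and 32.6 with siLINC01534-1 and at 45.2 and 44.7 with siLINC01534-2. All 3 groups were apart, with siLINC01534-1 lowest and siLINC01534-2 highest. The changes were -0.22 with siLINC01534-1 (SE 0.040, adjusted p = 0.0080 from limma) and 0.23 with siLINC01534-2 (SE 0.040, adjusted p = 0.015 from limma), with a difference of -0.44 (SE 0.040, adjusted p = 9.1e-04 from limma). The rise of SQLE with siLINC01534-2 lost its call without the first parent library and without either siLINC01534-2 library (adjusted p up to 0.072 from limma). LSS, the lanosterol synthase, instead fell with both. The parent libraries gave 29.5 and 28.9 FPKM for LSS, those of siLINC01534-1 20.4 and 18.6, and those of siLINC01534-2 23.4 and 23.5. The order was parent, siLINC01534-2, siLINC01534-1, without overlap. Its changes were -0.56 with siLINC01534-1 (SE 0.053, adjusted p = 8.7e-04 from limma) and -0.30 with siLINC01534-2 (SE 0.053, adjusted p = 0.016 from limma), the second lost without any 1 of the parent or siLINC01534-2 libraries (adjusted p up to 0.088 from limma). The siRNAs differed in LSS by -0.26 (SE 0.053, adjusted p = 0.014 from limma), and this call was lost without either siLINC01534-2 library (adjusted p up to 0.065 from limma).

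**Figure D2:**
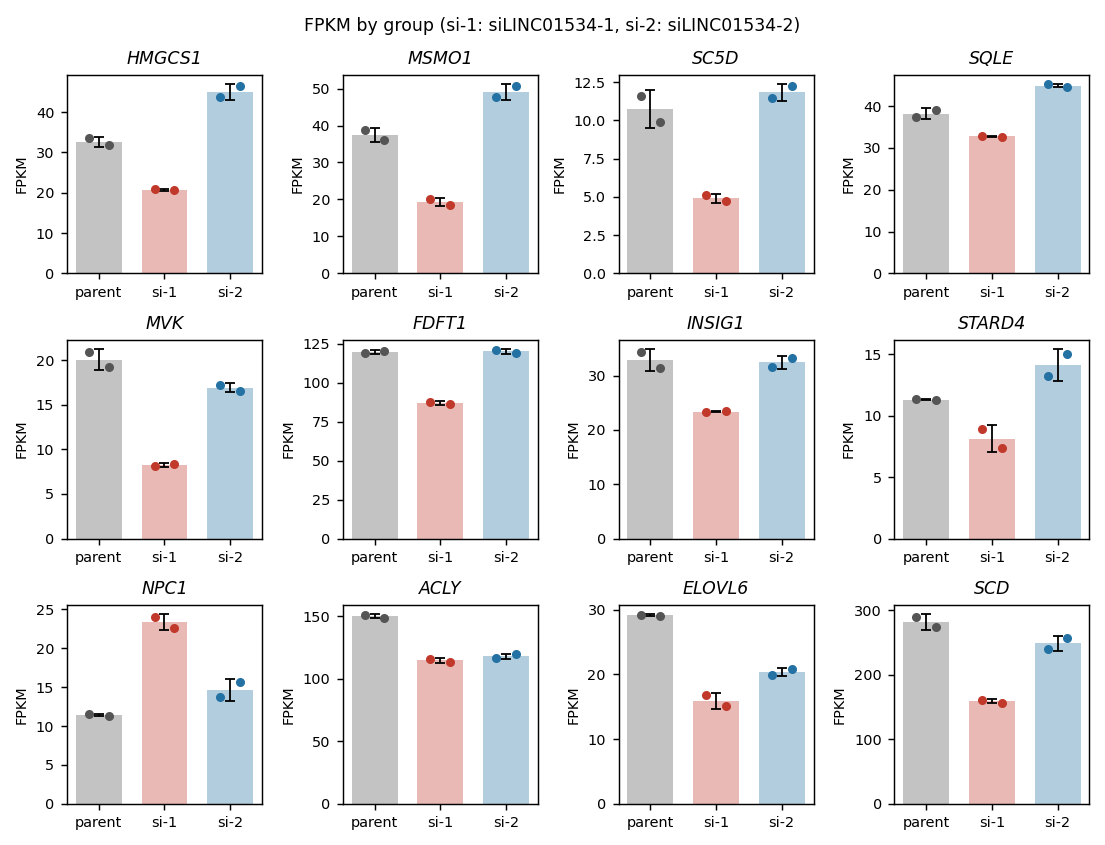
FPKM of 12 members in the 3 groups. Bars give the mean of 2 libraries from zero, error bars the SD (n = 2) and points the libraries. HMGCS1, MSMO1, SQLE and STARD4 are lowest with siLINC01534-1 and highest with siLINC01534-2, NPC1 is highest with siLINC01534-1, and ACLY is below parent with both siRNAs.

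After lanosterol, a chain of reductases, oxidases and isomerases gives cholesterol. With siLINC01534-1, 8 of the 9 genes of this chain fell, against 24.5% of all tested genes. MSMO1 (chromosome 4, 166248819 to 166264316, plus strand) encodes the sterol C4 methyl oxidase. FPKM values of MSMO1 were 38.7 and 36.1 (parent), 20.1 and 18.6 (siLINC01534-1) and 47.6 and 50.6 (siLINC01534-2). The 3 groups were far apart, at 0.518 times parent with siLINC01534-1 and 1.31 times with siLINC01534-2. The changes were -0.92 with siLINC01534-1 (SE 0.061, adjusted p = 2.8e-04 from limma) and 0.38 with siLINC01534-2 (SE 0.061, adjusted p = 0.012 from limma). The difference between the siRNAs, -1.30 (SE 0.061, adjusted p = 1.6e-04 from limma), was the largest among the members. The rise of MSMO1 with siLINC01534-2 lost its call without the second parent or the second siLINC01534-2 library (adjusted p = 0.074 and 0.073 from limma).

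SC5D (chromosome 11, 121163390 to 121184119, plus strand) encodes lathosterol oxidase, which acts near the end of the chain. For SC5D, parent gave an FPKM of 11.6 and 9.88, siLINC01534-1 5.11 and 4.71, and siLINC01534-2 11.5 and 12.2. Its level with siLINC01534-1 was 0.457 times that in parent, and parent overlapped with siLINC01534-2. The change was -0.99 with siLINC01534-1 (SE 0.089, adjusted p = 7.4e-04 from limma) and 0.13 with siLINC01534-2 (SE 0.089, adjusted p = 0.34 from limma), and the siRNAs differed by -1.12 (SE 0.089, adjusted p = 6.6e-04 from limma).

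EBP, the sterol isomerase, fell with both siRNAs. In parent, EBP had an FPKM of 86.8 and 87.5, and the values were 52.3 and 48.9 with siLINC01534-1 and 72.5 and 73.3 with siLINC01534-2. The groups were ordered parent, siLINC01534-2, siLINC01534-1 and did not overlap. EBP shares 36.4% of its exonic bases with another annotated coding gene on the same strand, so its reads are uncertain. The changes were -0.77 with siLINC01534-1 (SE 0.042, adjusted p = 1.6e-04 from limma) and -0.25 with siLINC01534-2 (SE 0.042, adjusted p = 0.014 from limma), and the siRNAs differed by -0.52 (SE 0.042, adjusted p = 6.8e-04 from limma). The fall with siLINC01534-2 lost its call without any 1 of the parent or siLINC01534-2 libraries (adjusted p up to 0.077 from limma). DHCR7 encodes the reductase that makes cholesterol in the last step of its branch. DHCR7 stood at 67.0 and 69.2 FPKM in parent, at 46.1 and 45.5 with siLINC01534-1 and at 67.7 and 67.3 with siLINC01534-2. Only the siLINC01534-1 libraries stood apart. The changes were -0.56 with siLINC01534-1 (SE 0.035, adjusted p = 2.2e-04 from limma) and -0.013 with siLINC01534-2 (SE 0.035, adjusted p = 0.82 from limma), with a difference of -0.55 (SE 0.035, adjusted p = 3.5e-04 from limma).

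TM7SF2 and LBR encode the C14 reductases, LBR also being a lamin receptor of the nuclear envelope. The parent libraries gave 10.8 and 11.1 FPKM for TM7SF2, those of siLINC01534-1 7.65 and 6.77, and those of siLINC01534-2 10.2 and 10.4. For TM7SF2 the siLINC01534-2 libraries lay just below parent and the siLINC01534-1 libraries far below. The change was -0.54 with siLINC01534-1 (SE 0.068, adjusted p = 0.0021 from limma) and -0.079 with siLINC01534-2 (SE 0.068, adjusted p = 0.44 from limma), and the siRNAs differed by -0.46 (SE 0.068, adjusted p = 0.0044 from limma). LBR fell with siLINC01534-1 by 0.30 on the log2 scale (adjusted p = 0.0022 from limma) and its change with siLINC01534-2 was -0.029 (adjusted p = 0.61 from limma). CYP51A1, the lanosterol demethylase, shared the order of HMGCS1. FPKM values of CYP51A1 were 65.0 and 59.0 (parent), 49.7 and 49.0 (siLINC01534-1) and 68.8 and 71.4 (siLINC01534-2). The siLINC01534-2 libraries were above parent, but the change did not pass the threshold. The changes were -0.32 with siLINC01534-1 (SE 0.055, adjusted p = 0.0061 from limma) and 0.18 with siLINC01534-2 (SE 0.055, adjusted p = 0.071 from limma), with a difference of -0.50 (SE 0.055, adjusted p = 0.0017 from limma). CYP51A1 shares 68.2% of its exonic bases with another annotated gene on the same strand, so its reads are uncertain.

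NSDHL removes the C4 carboxyl group. For NSDHL, parent gave an FPKM of 31.8 and 31.4, siLINC01534-1 26.8 and 26.6, and siLINC01534-2 34.0 and 37.1. The groups did not overlap. The changes were -0.23 with siLINC01534-1 (SE 0.051, adjusted p = 0.014 from limma) and 0.17 with siLINC01534-2 (SE 0.051, adjusted p = 0.071 from limma), and the siRNAs differed by -0.40 (SE 0.051, adjusted p = 0.0028 from limma). The fall of NSDHL with siLINC01534-1 lost its call without any 1 of the parent or siLINC01534-1 libraries (adjusted p up to 0.072 from limma). HSD17B7, the C3 ketoreductase, passed in 0 of the 3 comparisons, with FPKM from 8.57 to 12.8, and has 2 named pseudogenes.

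In the sterol arm as a whole, 17 of 20 genes were lower and 0 higher with siLINC01534-1, against 24.5% and 21.8% of all tested genes. The median log2 fold change was -0.44, while that of all tested genes was 0.00031. With siLINC01534-2, 4 were lower (MVK, FDPS, LSS, EBP) and 3 higher (HMGCS1, SQLE, MSMO1), against 11.8% and 11.1% of all tested genes. The median was 0.075, against 0.0018 over all tested genes. The other 13 of the 20 passed the threshold in neither direction with siLINC01534-2. All 20 log2 fold changes of siLINC01534-1 against siLINC01534-2 were negative, and 16 passed the threshold. Past the threshold, 22.3% of all tested genes were lower and 19.5% higher. The median was -0.46, against 0.00024 over all tested genes. The counts held for siLINC01534-1 and for the difference with each library left out (15 to 17 and 15 to 16 genes lower). For siLINC01534-2 they did not, since the number lower dropped to 0 without the second parent library or without either siLINC01534-2 library, to 1 without the first parent library and to 3 without either siLINC01534-1 library. The number higher with siLINC01534-2 was 1 without its second library and 2 or 3 otherwise. Summed over the 20 genes, FPKM came to 913 and 909.6 (parent), 666 and 647 (siLINC01534-1) and 915 and 929.9 (siLINC01534-2).

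Of the 4 genes that control the SREBPs, 1 fell, 1 rose and 2 passed in neither direction with siLINC01534-1, and 0 passed with siLINC01534-2. Of all tested genes, 24.5% fell and 21.8% rose with siLINC01534-1, and 11.8% and 11.1% with siLINC01534-2. INSIG1 (chromosome 7, 155089486 to 155101945, plus strand) encodes the protein that retains SCAP and is itself a known SREBP target. In parent, INSIG1 had an FPKM of 34.3 and 31.5, and the values were 23.3 and 23.5 with siLINC01534-1 and 31.6 and 33.2 with siLINC01534-2. The siLINC01534-1 libraries were lowest and the other groups interleaved, the order seen in FDFT1 and DHCR7. The change was -0.47 with siLINC01534-1 (SE 0.055, adjusted p = 0.0016 from limma) and -0.019 with siLINC01534-2 (SE 0.055, adjusted p = 0.84 from limma), and the siRNAs differed by -0.45 (SE 0.055, adjusted p = 0.0023 from limma).

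SCAP, the escort and sterol sensor, moved the other way. SCAP stood at 24.3 and 24.3 FPKM in parent, at 28.1 and 29.1 with siLINC01534-1 and at 23.6 and 23.9 with siLINC01534-2. Only the siLINC01534-1 libraries were above parent. The changes were 0.23 with siLINC01534-1 (SE 0.039, adjusted p = 0.0063 from limma) and -0.031 with siLINC01534-2 (SE 0.039, adjusted p = 0.61 from limma), and the siRNAs differed by 0.26 (SE 0.039, adjusted p = 0.0049 from limma). SREBF2 encodes SREBP-2. The parent libraries gave 46.0 and 47.3 FPKM for SREBF2, those of siLINC01534-1 44.8 and 44.6, and those of siLINC01534-2 45.6 and 50.8. The siLINC01534-1 libraries lay just below parent and the siLINC01534-2 libraries on either side of it, and the changes of -0.060 with siLINC01534-1 (SE 0.057, adjusted p = 0.43 from limma) and 0.045 with siLINC01534-2 (SE 0.057, adjusted p = 0.61 from limma) did not pass the threshold. SREBF1 encodes SREBP-1. FPKM values of SREBF1 were 41.0 and 41.2 (parent), 37.9 and 37.04 (siLINC01534-1) and 36.5 and 38.9 (siLINC01534-2). All 4 siRNA libraries were below both parent libraries, yet the changes of -0.13 with siLINC01534-1 (SE 0.044, adjusted p = 0.061 from limma) and -0.12 with siLINC01534-2 (SE 0.044, adjusted p = 0.11 from limma) did not pass either. The first passed without either siLINC01534-2 library (adjusted p = 0.047 from limma each time). Between the siRNAs SREBF1 differed by -0.0072, with a 95% interval from -0.12 to 0.10, and SREBF2 by -0.11, with an interval from -0.25 to 0.038. The difference in SREBF2 passed without the first siLINC01534-2 library (adjusted p = 0.047 from limma). These are RNA levels and say nothing of how much SREBP was processed.

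Of the transport genes, NPC1 (chromosome 18, 21086148 to 21166470, minus strand) rose with both siRNAs. It encodes the membrane protein that exports cholesterol from lysosomes. For NPC1, parent gave an FPKM of 11.5 and 11.3, siLINC01534-1 24.1 and 22.7, and siLINC01534-2 13.7 and 15.6. The groups did not overlap, and the level was 2.05 times parent with siLINC01534-1 and 1.28 times with siLINC01534-2. The changes were 0.97 with siLINC01534-1 (SE 0.072, adjusted p = 3.9e-04 from limma) and 0.33 with siLINC01534-2 (SE 0.072, adjusted p = 0.029 from limma), and the siRNAs differed by 0.64 (SE 0.072, adjusted p = 0.0019 from limma). The rise with siLINC01534-2 lost its call when any library other than the first siLINC01534-2 library was left out (adjusted p up to 0.13 from limma).

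STARD4 encodes a cytosolic sterol carrier and is a known SREBP target. In parent, STARD4 had an FPKM of 11.4 and 11.3, and the values were 8.92 and 7.35 with siLINC01534-1 and 13.2 and 15.04 with siLINC01534-2. Its order was that of HMGCS1, with siLINC01534-1 lowest and siLINC01534-2 highest. The changes were -0.44 with siLINC01534-1 (SE 0.10, adjusted p = 0.018 from limma) and 0.29 with siLINC01534-2 (SE 0.10, adjusted p = 0.094 from limma), and the siRNAs differed by -0.73 (SE 0.10, adjusted p = 0.0037 from limma). The fall of STARD4 lost its call without either parent library or the second siLINC01534-1 library (adjusted p up to 0.087 from limma). ABCA1, the cholesterol exporter and a known target of the oxysterol receptors LXR, was read at low depth. Parent had an FPKM of 0.0959 and 0.0673 (10 and 7 estimated reads) and siLINC01534-1 had 0.262 and 0.277 (24 and 29). With siLINC01534-2 it was 0.156 and 0.232 (14 and 25 estimated reads). The siRNA libraries were thus all above both parent libraries. In the fit without a filter on low values, the log2 fold change was 0.23 (adjusted p = 0.025) and 0.14 (adjusted p = 0.14 from limma), and the siRNAs differed by 0.089 (adjusted p = 0.27 from limma).

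In the fatty acid arm, the first enzymes fell with both siRNAs. ACLY, the ATP citrate lyase, releases acetyl-CoA from citrate for both arms. ACLY stood at 151 and 149 FPKM in parent, at 116 and 113 with siLINC01534-1 and at 117 and 119.5 with siLINC01534-2. Both siRNA groups lay below parent and close to each other. The changes were -0.38 with siLINC01534-1 (SE 0.033, adjusted p = 6.0e-04 from limma) and -0.34 with siLINC01534-2 (SE 0.033, adjusted p = 0.0031 from limma). The difference between the siRNAs was -0.042, with a 95% interval from -0.12 to 0.040. ACACA, the acetyl-CoA carboxylase that commits carbon to fatty acids, fell with both as well, from 35.1 to 35.7 FPKM in parent, 29.2 to 29.9 with siLINC01534-1 and 27.8 to 28.7 with siLINC01534-2. Its changes were -0.25 with siLINC01534-1 (SE 0.040, adjusted p = 0.0046 from limma) and -0.32 with siLINC01534-2 (SE 0.040, adjusted p = 0.0064 from limma), with a difference of 0.063 and an interval from -0.036 to 0.16. Both calls with siLINC01534-2, for ACLY and ACACA, held with each library left out (adjusted p up to 0.031 and 0.049 from limma). ACSS2, which makes acetyl-CoA from acetate, passed in 0 comparisons, with FPKM from 10.2 to 11.6.

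FASN encodes the fatty acid synthase that assembles palmitate. The parent libraries gave 226 and 226 FPKM for FASN, those of siLINC01534-1 174 and 167, and those of siLINC01534-2 191 and 192. The order was parent, siLINC01534-2, siLINC01534-1, without overlap. The changes were -0.41 with siLINC01534-1 (SE 0.033, adjusted p = 5.2e-04 from limma) and -0.24 with siLINC01534-2 (SE 0.033, adjusted p = 0.0088 from limma), with a difference of -0.17 (SE 0.033, adjusted p = 0.011 from limma). ELOVL6 (chromosome 4, 110967002 to 111120355, minus strand) elongates palmitate. FPKM values of ELOVL6 were 29.2 and 29.0 (parent), 16.8 and 15.05 (siLINC01534-1) and 19.9 and 20.9 (siLINC01534-2). It had the same order as FASN and the largest fall of the arm, to 0.548 times parent with siLINC01534-1 and 0.701 times with siLINC01534-2. The changes were -0.83 with siLINC01534-1 (SE 0.062, adjusted p = 4.0e-04 from limma) and -0.49 with siLINC01534-2 (SE 0.062, adjusted p = 0.0065 from limma), and the siRNAs differed by -0.34 (SE 0.062, adjusted p = 0.0093 from limma). With siLINC01534-2, the calls of FASN and ELOVL6 were lost without either parent library, and that of FASN also without the second siLINC01534-2 library (adjusted p up to 0.054 and 0.053 from limma). The difference in ELOVL6 lost its call without the second siLINC01534-2 library (adjusted p = 0.055 from limma).

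SCD (chromosome 10, 102106990 to 102124583, plus strand) encodes stearoyl-CoA desaturase, which makes monounsaturated chains, and was the most abundant member per length in parent. For SCD, parent gave an FPKM of 290.5 and 274, siLINC01534-1 161 and 157, and siLINC01534-2 240.1 and 257. The siLINC01534-1 libraries were far below and the siLINC01534-2 libraries slightly below parent. The change was -0.82 with siLINC01534-1 (SE 0.050, adjusted p = 2.1e-04 from limma) and -0.18 with siLINC01534-2 (SE 0.050, adjusted p = 0.053 from limma), the second just missing the threshold, and the siRNAs differed by -0.64 (SE 0.050, adjusted p = 6.0e-04 from limma). The desaturases of polyunsaturated chains, FADS1 and FADS2, lie on opposite strands and overlap. FADS1 passed in 0 comparisons, with FPKM from 18.9 to 23.8. FADS2, with FPKM from 7.90 to 10.3, was lower with siLINC01534-1 than in parent (log2 fold change -0.23, adjusted p = 0.047 from limma) and than with siLINC01534-2 (log2 difference -0.24, adjusted p = 0.048 from limma). Both calls of FADS2 were close to the threshold, and both were lost without any 1 of the parent or siLINC01534-1 libraries, the second also without the first siLINC01534-2 library (adjusted p up to 0.19 and 0.18 from limma).

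Of the 8 fatty acid genes, 6 were lower and 0 higher with siLINC01534-1, against 24.5% and 21.8% of all tested genes. The median log2 fold change was -0.32, against 0.00031 over all tested genes. With siLINC01534-2, 4 were lower (ACLY, ACACA, FASN, ELOVL6) and 0 higher, against 11.8% and 11.1%. Their median was -0.21, against 0.0018. The siRNAs differed in 4 of the 8 (FASN, ELOVL6, SCD, FADS2), all lower with siLINC01534-1. Over all tested genes, 22.3% were lower and 19.5% higher. The median difference was -0.17 in the arm, against 0.00024 over all tested genes. Without either parent library the number lower with siLINC01534-2 was 2, and without its second library 3. Summed over the arm, FPKM came to 776 and 757 (parent), 538 and 518 (siLINC01534-1) and 639 and 663 (siLINC01534-2).

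**Figure D3:**
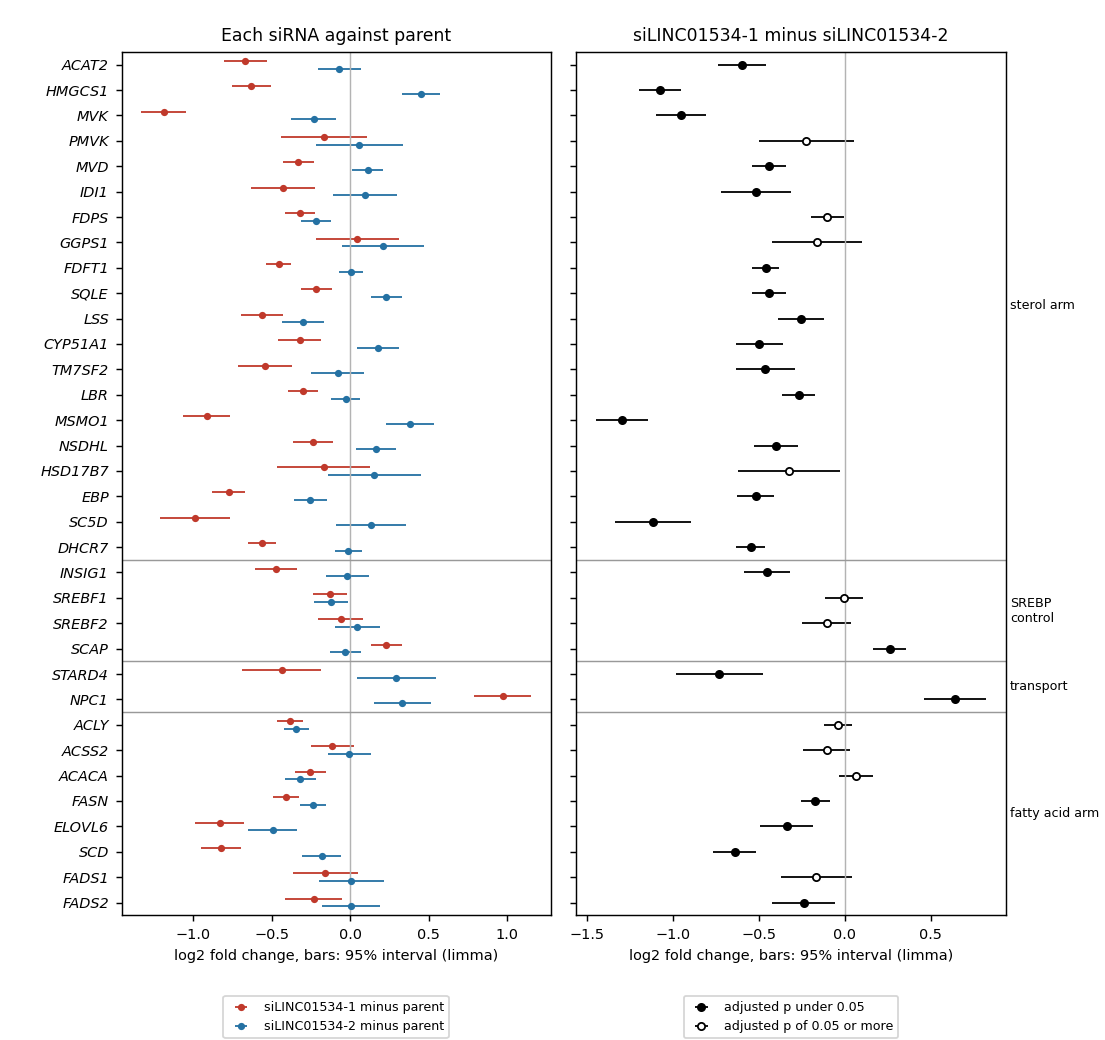
Log2 fold changes of the 34 tested members with 95% intervals from limma, for each siRNA against parent (left) and for siLINC01534-1 minus siLINC01534-2 (right). On the right, filled points have an adjusted p-value under 0.05. All 20 sterol genes lie left of zero on the right, while ACLY and ACACA lie at zero within their intervals.

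Set side by side, the medians of the arms had the same sign with siLINC01534-1 and opposite signs with siLINC01534-2. With siLINC01534-1, the median difference from the parent mean was -0.40 and -0.48 in the 2 libraries for the sterol arm and -0.31 and -0.34 for the fatty acid arm. With siLINC01534-2 it was 0.044 and 0.054 for the sterol arm, but -0.23 and -0.18 for the fatty acid arm. With siLINC01534-1, 17 of 20 sterol genes and 6 of 8 fatty acid genes were called lower, against 24.5% of all tested genes. With siLINC01534-2, 4 of 20 and 4 of 8 were lower, against 11.8%, and 3 of 20 and 0 of 8 were higher, against 11.1%. The counts with siLINC01534-2 did not hold with each library left out, as given above. The sterol median with siLINC01534-2 was 0.075 in the fit, with 12 genes above zero and 8 below, and 0.025 without the second parent library. These counts describe the arms, and the difference between the arms was not tested, since genes are not replicates.

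**Figure D4:**
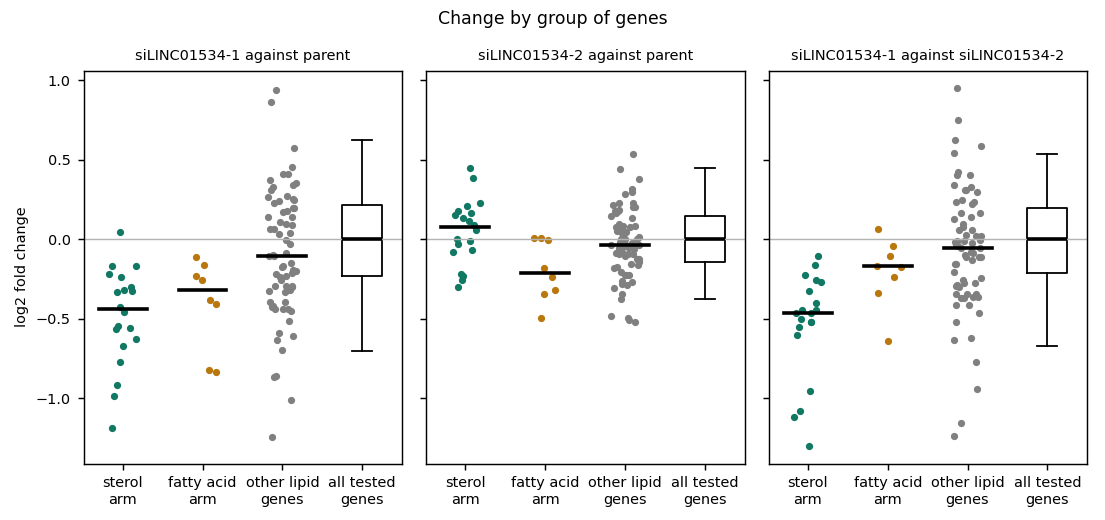
Log2 fold changes (vertical axis) of the 20 sterol genes, the 8 fatty acid genes, the 71 other lipid genes tested and all 12203 tested genes in the 3 comparisons. Points are genes, thick lines medians, and the boxes of all tested genes span the quartiles with whiskers at the percentiles 5 and 95. In the middle panel the sterol median lies above zero and the fatty acid median below it.

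A wider list of 77 lipid genes outside the members was read from the same fit, and 71 of them were tested. With siLINC01534-1, 29 were lower and 20 higher, against 24.5% and 21.8% of all tested genes, and the median log2 fold change was -0.11. These 49 calls dropped to 31 and 30 without the first and the second parent library and to 29 without the second siLINC01534-1 library. With siLINC01534-2, 9 were lower and 7 higher, with a median of -0.036, shares near the 11.8% and 11.1% of all tested genes. The 16 calls dropped to 7 and 5 without the first and the second parent library, and to 8 and 6 without the first and the second siLINC01534-2 library. Between the siRNAs, 23 were lower with siLINC01534-1 and 14 higher, against 22.3% and 19.5%, with a median of -0.053.

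Within this list, 12 of 21 genes around fatty acid synthesis, elongation and activation were lower with siLINC01534-1 and 4 higher. Over all tested genes the shares were 24.5% and 21.8%. HSD17B12, the ketoreductase of the elongation cycle, was among the lower genes. In parent, HSD17B12 had an FPKM of 41.2 and 37.7, and the values were 20.3 and 22.2 with siLINC01534-1 and 40.7 and 42.6 with siLINC01534-2. Its change was -0.86, adjusted p = 4.0e-04 from limma, and the siRNAs differed by -0.94 (SE 0.065, adjusted p = 4.2e-04 from limma). FADS3, a relative of FADS1 and FADS2, went the other way. FADS3 stood at 20.3 and 21.9 FPKM in parent, at 33.4 and 30.6 with siLINC01534-1 and at 16.1 and 16.0 with siLINC01534-2. It rose with siLINC01534-1 (0.58, adjusted p = 0.0013 from limma), fell with siLINC01534-2 (-0.37, adjusted p = 0.014 from limma) and differed by 0.95 (SE 0.062, adjusted p = 3.7e-04 from limma). In glycerolipid synthesis and storage, 6 of 10 genes were lower with siLINC01534-1 and 0 higher, against the same 24.5% and 21.8%. PLIN2, which coats lipid droplets, was among the 6. The parent libraries gave 14.95 and 16.1 FPKM for PLIN2, those of siLINC01534-1 8.90 and 11.2, and those of siLINC01534-2 17.3 and 18.1. Its change was -0.59, adjusted p = 0.0072 from limma, and the siRNAs differed by -0.77 (SE 0.10, adjusted p = 0.0035 from limma).

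The largest differences between the siRNAs in this list were those of COQ2 and FNTB, which use isoprenoids outside sterols. COQ2 attaches the isoprenoid tail of coenzyme Q. FPKM values of COQ2 were 18.5 and 15.2 (parent), 7.36 and 8.30 (siLINC01534-1) and 19.6 and 20.0 (siLINC01534-2). The difference between the siRNAs was -1.24 (SE 0.10, adjusted p = 6.9e-04 from limma). FNTB encodes the beta subunit of protein farnesyltransferase. For FNTB, parent gave an FPKM of 6.55 and 6.47, siLINC01534-1 1.82 and 2.56, and siLINC01534-2 5.89 and 6.20. It differed by -1.15 (SE 0.12, adjusted p = 0.0014 from limma), and the siLINC01534-1 libraries stood far below the others for both genes. Among the 10 genes of isoprenoid use as a group, 4 were lower and 3 higher with siLINC01534-1 than in parent. Over all tested genes the shares were 24.5% and 21.8%. Between the siRNAs, 3 of the 10 were lower with siLINC01534-1 and 0 higher, against 22.3% and 19.5%, and their median difference was -0.050. Of the 3 other sterol synthesis genes, 2 were lower with siLINC01534-1 than in parent and than with siLINC01534-2 (ERG28, listed as C14orf1, and IDI2), and the mitochondrial thiolase ACAT1 was higher in both and fell with siLINC01534-2 against parent (-0.35, adjusted p = 0.0070 from limma).

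Fatty acid oxidation, the reverse of synthesis, had 4 of 8 genes higher and 1 lower with siLINC01534-1, against 21.8% and 24.5% of all tested genes. With siLINC01534-2, 1 was higher and 2 lower than in parent, against 11.1% and 11.8% of all tested genes. Between the siRNAs, 5 of 8 were higher with siLINC01534-1 and 1 lower, against 19.5% and 22.3%. ACADVL, the very long-chain acyl-CoA dehydrogenase, showed the largest rise of the list. In parent, ACADVL had an FPKM of 81.2 and 78.6, and the values were 152 and 156 with siLINC01534-1 and 99.7 and 99.8 with siLINC01534-2. Its change was 0.94 with siLINC01534-1 (SE 0.034, adjusted p = 6.2e-05 from limma) and 0.32 with siLINC01534-2 (SE 0.034, adjusted p = 0.0042 from limma). CPT2, which returns acyl groups to CoA inside mitochondria, rose with siLINC01534-1 (0.24, adjusted p = 0.047 from limma) and fell with siLINC01534-2 (-0.51, adjusted p = 0.010 from limma). CPT2 stood at 7.87 and 8.06 FPKM in parent, at 9.41 and 9.80 with siLINC01534-1 and at 4.92 and 5.69 with siLINC01534-2. The siRNAs differed by 0.75 (SE 0.076, adjusted p = 0.0013 from limma). HADHB also rose with siLINC01534-1 (0.31, adjusted p = 0.0052 from limma), while its change with siLINC01534-2 was 0.087, adjusted p = 0.27 from limma. HADHA rose by a small amount with siLINC01534-1 (0.11, adjusted p = 0.042 from limma) and fell with siLINC01534-2 (-0.48, adjusted p = 0.0013 from limma). CPT1A, the entry step of oxidation, fell with siLINC01534-1 (-0.42, adjusted p = 0.0022 from limma), and its change with siLINC01534-2 was -0.060, adjusted p = 0.46 from limma.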

How the data were processed

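Of HCT116 cells, 2 libraries each of parent, siLINC01534-1 and siLINC01534-2 were analysed, grouped by their labels. The authors made stranded poly(A) libraries and deposited Cuffnorm FPKM values for 26255 gene symbols per library. The submitters' notes name hg19, TopHat 2.0.13, Bowtie2 2.2.3, SAMtools 0.1.19 and Cufflinks 2.2.1. The gene annotation and strand setting are not given in the sources used here. FPKM are scaled to the depth of each library, so a shift shared by all genes would not be seen.

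Genes averaging 1 FPKM or more were tested on log2(FPKM + 1) with limma 3.58.1 (R 4.3.3), with a mean per group, a variance trend and all 6 libraries in 1 fit. Adjustment was by Benjamini-Hochberg over the 12203 genes tested (two-sided, threshold 0.05). In data simulated with a log2 change of 1 in 200 genes with siLINC01534-1, 198 were called against parent with the right sign, with 6 unchanged genes called. In the measured data 5654 genes were called in that comparison, and most member changes were smaller than 1. The simulation thus does not give the share of missed or false calls at the sizes reported here. Members and lists were chosen with earlier results of these data known, so no list was tested as a set.

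FPKM per library are given for members past the threshold with an absolute log2 fold change of at least 0.4 in any comparison, and for all control and transport genes. NSDHL, just under 0.4, and ACLY were added after their values were seen. Of the other lipid genes, the 6 that differed most between the siRNAs are named, with groups where at least 50% passed in 1 direction. ACADVL, HADHA, HADHB, CPT1A, ERG28, IDI2 and ACAT1 were named within such groups after their values were seen.

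Read counts were not used here. Low FPKM lay at whole multiples of a step (within 0.05) for 55.2% of 4905 genes, so reads were not recovered for a count test, and depth was estimated from 308 genes with 1 transcript (200 bases taken off its length). For parent replicate 1 the quartiles of that estimate were 9580000 and 10200000 reads. Positions are from GENCODE on GRCh37, and promoters from RefSeq on GRCh38.p14. Python 3.11.15, pandas 2.3.3, numpy 2.4.6 and matplotlib 3.10.9 were used. The alternatives were another pseudocount, filter and scaling, no variance trend, a replicate block, and each library left out.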

Additional observations from a re-analysis of the deposited data

Results flagged for a closer look

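For 24 of the 34 members tested the effects of the siRNAs differed from each other, by the limma test of siLINC01534-1 against siLINC01534-2 (adjusted p under 0.05). With siLINC01534-1, 22 were lower and 2 higher, against 22.3% and 19.5% of all tested genes. Lower calls were thus a larger share of the members than of all tested genes, and higher calls a smaller share. Differences between the siRNAs were also found outside the members, since 5096 of the 12203 tested genes were called. Both effects are measured against the same parent libraries. In the sterol arm the log2 difference, siLINC01534-1 minus siLINC01534-2, was -0.60 for ACAT2, -1.08 for HMGCS1, -0.96 for MVK, -0.44 for MVD, -0.52 for IDI1, -0.46 for FDFT1, -0.44 for SQLE and -0.26 for LSS. Further along the chain it was -0.50 for CYP51A1, -0.46 for TM7SF2, -0.27 for LBR, -1.30 for MSMO1, -0.40 for NSDHL, -0.52 for EBP, -1.12 for SC5D and -0.55 for DHCR7. All 16 of these sterol genes were lower with siLINC01534-1. Among control and transport genes it was -0.45 for INSIG1, 0.26 for SCAP, -0.73 for STARD4 and 0.64 for NPC1. In the fatty acid arm it was -0.17 for FASN, -0.34 for ELOVL6, -0.64 for SCD and -0.24 for FADS2. The calls of LSS, ELOVL6 and FADS2 were lost without 1 library, with adjusted p-values up to 0.065, 0.055 and 0.18. The cause of these differences was not tested.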

How the results depend on the processing

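Groups of 2 libraries limit precision, and the FPKM carry no counts. Of the called members, 26 of 27 with siLINC01534-1 (not FADS2), 10 of 12 with siLINC01534-2 (not MVK and NPC1) and 23 of 24 between the siRNAs (not FADS2) kept their call under every alternative that used all libraries. SCD became a call with siLINC01534-2 when the libraries were centred on their median, with a mean FPKM of at least 5 or with a pseudocount of 0.1. Under quantile normalization the sterol median was -0.35 with siLINC01534-1 and -0.42 between the siRNAs, and the fatty acid median -0.27, -0.16 with siLINC01534-2 and -0.13 between the siRNAs. It reversed 6 values that were not calls, to 0.022 for SREBF2 with siLINC01534-1, to 0.034 for DHCR7, -0.0043 for FADS1 and -0.022 for FADS2 with siLINC01534-2, and to 0.045 for SREBF1 and 0.022 for ACLY between the siRNAs, and centring took SREBF1 to 0.00997. The causes were not tested. No scaling moved the median of all genes by over 0.1.

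Leaving out a library leaves a group with 1, assumed to vary like the others. With siLINC01534-1, 23 to 27 of 27 member calls were kept, SREBF1 was gained without either siLINC01534-2 library, the sterol median was -0.48 to -0.40, the other lipid calls 29 to 44, and GGPS1 ranged from -0.059 to 0.15. With siLINC01534-2, 5 and 4 of 12 calls were kept without the first and second parent library, 10 without either siLINC01534-1 library, and 7 and 4 without the first and second siLINC01534-2 library, with adjusted p of lost calls up to 0.16. HMGCS1, ACLY and ACACA were kept each time. Calls over all genes fell from 2788 to between 857 and 1931, sterol genes higher to 1 to 3 and lower to 0 to 3, fatty acid genes lower to 2 to 4, and other lipid calls from 16 to 5 to 13. The sterol median was 0.025 to 0.075 and the fatty acid median -0.23 to -0.18. Values that were not calls changed sign, from -0.070 to 0.19 for PMVK, -0.0066 to 0.017 for FDFT1, -0.036 to 0.010 for DHCR7, -0.079 to 0.042 for INSIG1, -0.031 to 0.12 for SREBF2, -0.044 to 0.031 for ACSS2, -0.038 to 0.052 for FADS1 and -0.077 to 0.089 for FADS2. Between the siRNAs, 22 or 23 of 24 calls were kept, calls over all genes were 3196 to 4515, the sterol median -0.50 to -0.44, the fatty acid median -0.21 to -0.11, and SREBF1 -0.053 to 0.038.

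The labels do not say whether same-numbered libraries were prepared together. Deviations of same-numbered libraries correlated at 0.11 (parent and siLINC01534-1), 0.027 (parent and siLINC01534-2) and -0.046 (the siRNAs), which cannot settle this. With the replicate number as a block, 5114, 1993 and 4438 of all genes were called, against 5654, 2788 and 5096, and 4 member calls were lost, MVK (adjusted p = 0.067) and NPC1 (0.056) with siLINC01534-2 and both of FADS2 (0.062 and 0.063).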

Other observations

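Some lipid genes outside the members, named after their values were seen, also differed from parent by the limma fit. NR1H2, which encodes the oxysterol receptor LXR beta, stood at 14.9 and 16.4 FPKM in parent, at 26.8 and 31.9 with siLINC01534-1 and at 23.4 and 19.8 with siLINC01534-2. Its log2 fold change was 0.86 (adjusted p = 0.0026) and 0.44 (adjusted p = 0.046). The other LXR gene, NR1H3, did not pass, at -0.23 with siLINC01534-1 (adjusted p = 0.38 from limma) and -0.29 with siLINC01534-2 (adjusted p = 0.33 from limma). MBTPS1, the protease that first cuts SREBPs in the Golgi apparatus, was higher with siLINC01534-1 by 0.35 (adjusted p = 0.0015) and at -0.055 with siLINC01534-2 (adjusted p = 0.36). MBTPS2 did not pass, at -0.17 with siLINC01534-1 (adjusted p = 0.087 from limma) and -0.016 with siLINC01534-2 (adjusted p = 0.89 from limma). INSIG2 was higher with siLINC01534-1 by 0.33 (adjusted p = 0.018 from limma), where INSIG1 was lower, and at 0.17 with siLINC01534-2 (adjusted p = 0.18 from limma). In lysosomal cholesterol handling, LIPA, the acid lipase, was higher with siLINC01534-1 by 0.41 (adjusted p = 0.0038), while NPC2, the soluble partner of NPC1, was at -0.44 (adjusted p = 0.0015). NCEH1, a cholesteryl ester hydrolase, was higher with siLINC01534-2 by 0.54 (adjusted p = 0.0029) and with siLINC01534-1 by 0.17 (adjusted p = 0.038).

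Among phospholipid genes, PCYT2, which activates ethanolamine, was lower with both siRNAs. Its FPKM was 26.0 and 26.7 (parent), 17.2 and 16.1 (siLINC01534-1), and 18.4 and 17.7 (siLINC01534-2). Its log2 fold change was -0.63 (adjusted p = 4.9e-04) and -0.52 (adjusted p = 0.0033). CHKA, a choline kinase, was lower with both as well, at -0.44 (adjusted p = 0.010) and -0.50 (adjusted p = 0.016). SLC25A1, the carrier that brings citrate out of mitochondria for ACLY, was lower with siLINC01534-1 at -0.61 (adjusted p = 0.0013) and at 0.012 with siLINC01534-2 (adjusted p = 0.91). ME1, listed in the same group, was instead higher with both, by 0.45 with siLINC01534-1 (adjusted p = 0.0013 from limma) and 0.29 with siLINC01534-2 (adjusted p = 0.015 from limma).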
